A study of Homo sapiens with 21 samples.

Results

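The 10 genes described here encode 6 synaptotagmins (SYT1, SYT4, SYT5, SYT7, SYT11 and SYT13) and 4 further proteins of regulated exocytosis, the SNAREs SNAP25, STX1A and VAMP2 and the active zone protein RIMS2. They were taken by symbol from a table of read counts for 62699 genes, and each symbol matched 1 gene. All 10 passed the filter on low counts, which 25884 genes passed. Islets differentiated from H1, a human embryonic stem cell line, were either unedited (WT) or carried a homozygous knockout labelled ISL1-/-, PAX6-/- or PDX1-/-. Cells of each genotype received, on day 11, a lentivirus with ISL1 and the blue fluorescent protein BFP (labelled ISL1-BFP, here the ISL1 vector) or with BFP alone (the BFP vector). BFP-positive cells were sorted on day 18, so all 8 groups share the stem cell line, transduction and sort. WT with either vector and PDX1-/- with the ISL1 vector have 2 libraries each, and the other 5 groups have 3 each, 21 libraries in all. The labels give neither the promoter of the vector nor the number of clones behind each knockout, and they do not say that replicates came from separate differentiations, so p-values measure the spread between these samples, which may be technical.

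Endocrine cells store hormones in dense core granules and release them when calcium rises. A granule is docked at the plasma membrane by Rab GTPases, their effectors and scaffolds such as RIMS2. It fuses when VAMP2 on the granule zips together with STX1A and SNAP25 on the plasma membrane. Synaptotagmins are membrane proteins with paired C2 domains. SYT1, SYT5 and SYT7 bind calcium and couple it to fusion, SYT7 being a main calcium sensor of insulin secretion, while SYT4, SYT11 and SYT13 are atypical members that lack part or all of the calcium binding.

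Total counts per library were from 36.8 to 60.2 M (1e6 counts). Of these, 2 libraries stood apart by the share of counts from mitochondrial genes, PAX6-/- ISL1 vector replicate 3 (3.17%) and PDX1-/- ISL1 vector replicate 4 (3.84%), against 1.28% to 1.93% in the other 19. The 2 libraries of PDX1-/- with the ISL1 vector also differed in INS, at 164 to 25610 CPM (counts per 1e6). The main results on exocytosis genes that rest on either library are therefore given with and without it. Leaving out a library from a group of 2 leaves no replicate there, and the spread is then taken from the other groups. All 13 general endocrine markers examined (CHGA, NEUROD1 and others) were above 1 CPM in every group, and INS and GCG were detected in every group. ISL1 in ISL1-/- with BFP was 76.9 ± 4.79 CPM (SD, n = 3) against 412.5 ± 150 (n = 2) in WT. Counts on ISL1 did not separate the libraries labelled ISL1 vector from those labelled BFP within any genotype (WT 349.5 ± 16.9, ISL1-/- 84.5 ± 12.6 with the ISL1 vector), and counts on PAX6 and PDX1 were not lower in their own knockouts than in WT beyond the spread, so the groups are named as labelled.

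The members differed widely in level. Per exon length, the median over the 21 libraries, in reads per kilobase of exon per 1e6 reads (RPKM), was highest for SYT4 (47.7) and STX1A (46.3). SYT11 (28.7), SYT7 (14.3), VAMP2 (12.1), SYT13 (11.8) and SYT5 (10.1) followed, with SNAP25 (4.54), RIMS2 (1.60) and SYT1 (0.738) lowest. The gene model of SNAP25 sums to 20369 bases of exon, the longest of the 10, which lowers its RPKM. SYT1, the fast calcium sensor of synapses, was thus the least abundant synaptotagmin of the set by this measure. SYT4 had the highest median, but the order depended on the group, and the mean of SYT11 was above that of SYT4 in PAX6-/- with BFP (55.55 ± 14.2 against 29.2 ± 6.06 RPKM, SD, n = 3) and in PDX1-/- with BFP (70.9 ± 5.24 against 22.2 ± 1.35 RPKM).

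**Figure D1:**
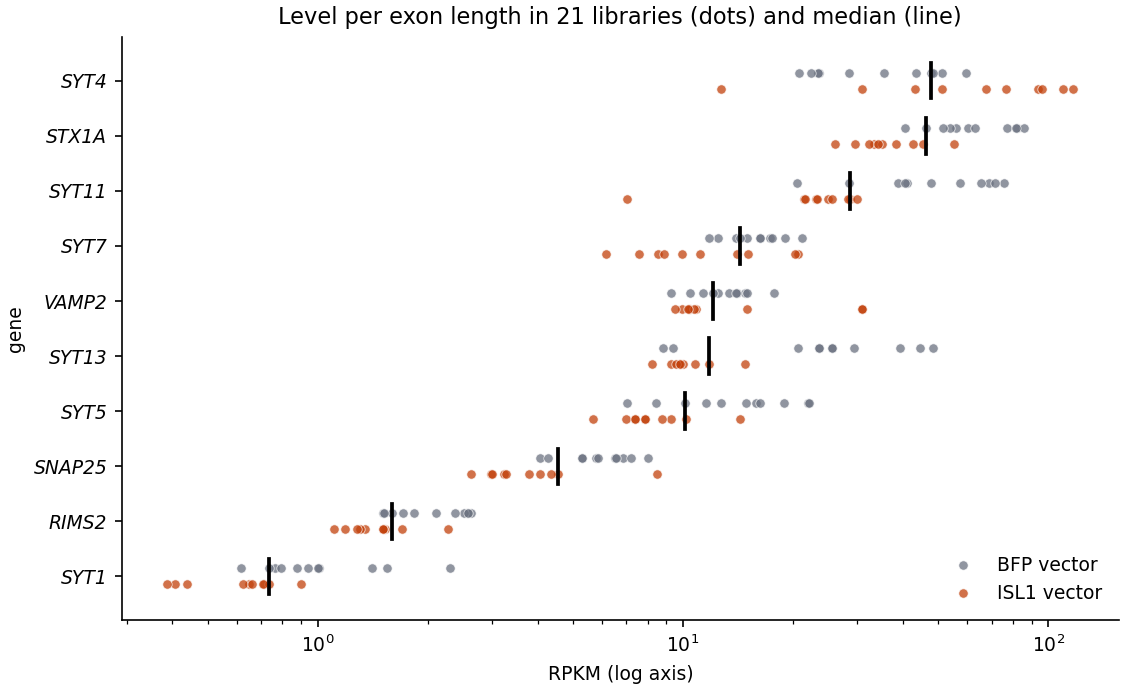
Levels of the 10 genes per exon length (RPKM, log axis), with a dot for each of the 21 libraries, grey for the BFP vector and orange for the ISL1 vector, and a line at the median. SYT4 and STX1A have the highest medians, 47.7 and 46.3 RPKM, and SYT1 the lowest, 0.738 RPKM.

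Upstream sequence is shown for SYT5, SYT11 and STX1A, whose levels were highest in PDX1-/- with BFP, and for SYT4, whose level was lowest there. The sequences are from RefSeq (assembly GRCh38.p14) and give 200 bases, from 250 to 51 bases before the annotated start, 5′ to 3′ on the gene's strand. Capitals mark matches on either strand to a GC box (GGGCGG), the core of a cAMP response element (TGACG) or an E-box of the NEUROD1 type (CAGATG). No match overlaps another.
SYT5, chr19:55180340-55180539, minus strand: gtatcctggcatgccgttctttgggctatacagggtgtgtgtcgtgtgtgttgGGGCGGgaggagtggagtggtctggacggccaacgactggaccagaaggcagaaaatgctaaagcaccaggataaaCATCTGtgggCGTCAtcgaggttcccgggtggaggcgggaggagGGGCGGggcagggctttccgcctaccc
SYT11, chr1:155859317-155859516, plus strand: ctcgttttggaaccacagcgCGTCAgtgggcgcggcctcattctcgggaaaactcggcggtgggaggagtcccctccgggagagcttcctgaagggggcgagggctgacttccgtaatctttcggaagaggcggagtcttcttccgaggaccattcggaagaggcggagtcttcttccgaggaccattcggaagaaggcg
STX1A, chr7:73719720-73719919, minus strand: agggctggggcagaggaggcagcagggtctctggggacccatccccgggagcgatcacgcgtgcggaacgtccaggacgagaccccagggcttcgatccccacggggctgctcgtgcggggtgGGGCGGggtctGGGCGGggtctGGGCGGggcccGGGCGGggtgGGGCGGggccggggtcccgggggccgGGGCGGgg
SYT4, chr18:43277541-43277740, minus strand: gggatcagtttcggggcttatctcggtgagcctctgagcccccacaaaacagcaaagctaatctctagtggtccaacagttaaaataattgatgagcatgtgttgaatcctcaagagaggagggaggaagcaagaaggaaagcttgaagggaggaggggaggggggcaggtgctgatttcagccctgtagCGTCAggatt
The STX1A window was 79.5% G and C and held 6 GC boxes, and the SYT5 window (61%) held 2, 1 E-box and 1 cAMP response element core. Windows of SYT11 (61%) and SYT4 (51%) each held 1 such core and no GC box. Of 35116 promoters in the same table, 35% held a GC box, 16% the cAMP response element core and 10.1% the E-box, and the median GC content was 57.5%. Searched on both strands as well were TAATTA (homeodomain core), TATAAA (core promoter element bound by TBP) and TTCAGCACC (part of a REST site). These occur in 3.74%, 7.63% and 0.225% of the promoters, and the letters are not in the 4 windows. A match is a description of letters and does not show binding. Of the 10 genes, 6 had an entry in this table, and the 4 shown are those whose window lies outside the gene as counted.

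SYT13 (ENSG00000019505.8, chromosome 11, bases 45240302 to 45286341, minus strand, GRCh38), an atypical synaptotagmin that binds no calcium and is known from endocrine precursors of the pancreas, was higher in all 3 knockouts than in WT under the BFP vector. In the knockouts it was lower with the ISL1 vector than with BFP. With BFP its level was 47.9 and 51.2 CPM in the 2 WT libraries and 129, 139.7 and 139 CPM in ISL1-/-. It was 159.7, 113 and 129 CPM in PAX6-/- and 263, 243 and 214.5 CPM in PDX1-/-. Every knockout library lay above both WT libraries, and the 3 PDX1-/- libraries lay above all others. On the log2 scale the change against WT was 1.45, SE 0.22 in ISL1-/- (2.74-fold, adjusted p = 0.00076, edgeR's quasi-likelihood test). It was 1.43, SE 0.22, adjusted p = 0.0013 in PAX6-/- and 2.28, SE 0.23, adjusted p = 8.1e-05 in PDX1-/- (4.84-fold, edgeR). All 3 calls held in 29 of 29 alternative analyses.

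With the ISL1 vector the SYT13 values of knockouts and WT were closer together. The libraries read 53.5 and 44.9 CPM in WT, 53.6, 54.3 and 53.2 in ISL1-/-, 50.5, 64.3 and 58.6 in PAX6-/- and 80.8 and 52.2 (replicates 2 and 4) in PDX1-/-. These values did not overlap those of the same knockout with BFP. Compared with BFP, SYT13 in ISL1-/- with the ISL1 vector was lower (log2 change -1.34, SE 0.19, adjusted p = 0.0032, edgeR), and this held in 29 of 29 alternatives. In PAX6-/- the change was -1.21, SE 0.19, adjusted p = 0.0092 (edgeR), -1.20, adjusted p = 0.0019 with the replicate number as a block. It was not called without PAX6-/- BFP replicate 1 (-1.06, adjusted p = 0.093) or without PAX6-/- ISL1 replicate 1 (-1.12, adjusted p = 0.058). In PDX1-/- it was -1.85, SE 0.22, adjusted p = 0.00012 (edgeR). It was -1.57 without PDX1-/- ISL1 replicate 4, which leaves that group without a replicate. The PDX1-/- call was lost with limma voom (-1.86, adjusted p = 0.16) and in a fit of only the groups compared (-1.85, adjusted p = 0.24), as was the PAX6-/- call in such a fit (-1.21, adjusted p = 0.52). In WT the difference between vectors was -0.01, SE 0.23 and did not pass the test (adjusted p = 1.0, edgeR).

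Whether the vector difference of SYT13 depended on the genotype was tested directly. The vector effect in PDX1-/- minus that in WT was -1.84, SE 0.32, adjusted p = 0.0089 (edgeR). It was not called without WT BFP replicate 1 (-1.80, adjusted p = 0.066), WT BFP replicate 3 (-1.90, adjusted p = 0.057) or WT ISL1 replicate 1 (-1.73, adjusted p = 0.11), nor with limma voom (-1.85, adjusted p = 0.19). For ISL1-/- the difference was -1.33, SE 0.30, adjusted p = 0.58 and for PAX6-/- -1.20, SE 0.30, adjusted p = 0.89 (edgeR), neither of which passed. Between knockouts and WT that both carried the ISL1 vector, SYT13 differed by 0.12, SE 0.21 in ISL1-/-, 0.23, SE 0.21 in PAX6-/- and 0.43, SE 0.23 in PDX1-/-, and none of these passed the test. The PDX1-/- value was 0.72 without PDX1-/- ISL1 replicate 4 and 0.72 without both libraries with a high mitochondrial share. These fits leave PDX1-/- with the ISL1 vector without a replicate. The knockout libraries with BFP enter both the comparison with WT and the comparison of vectors, so those 2 sets of differences share samples.

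**Figure D2:**
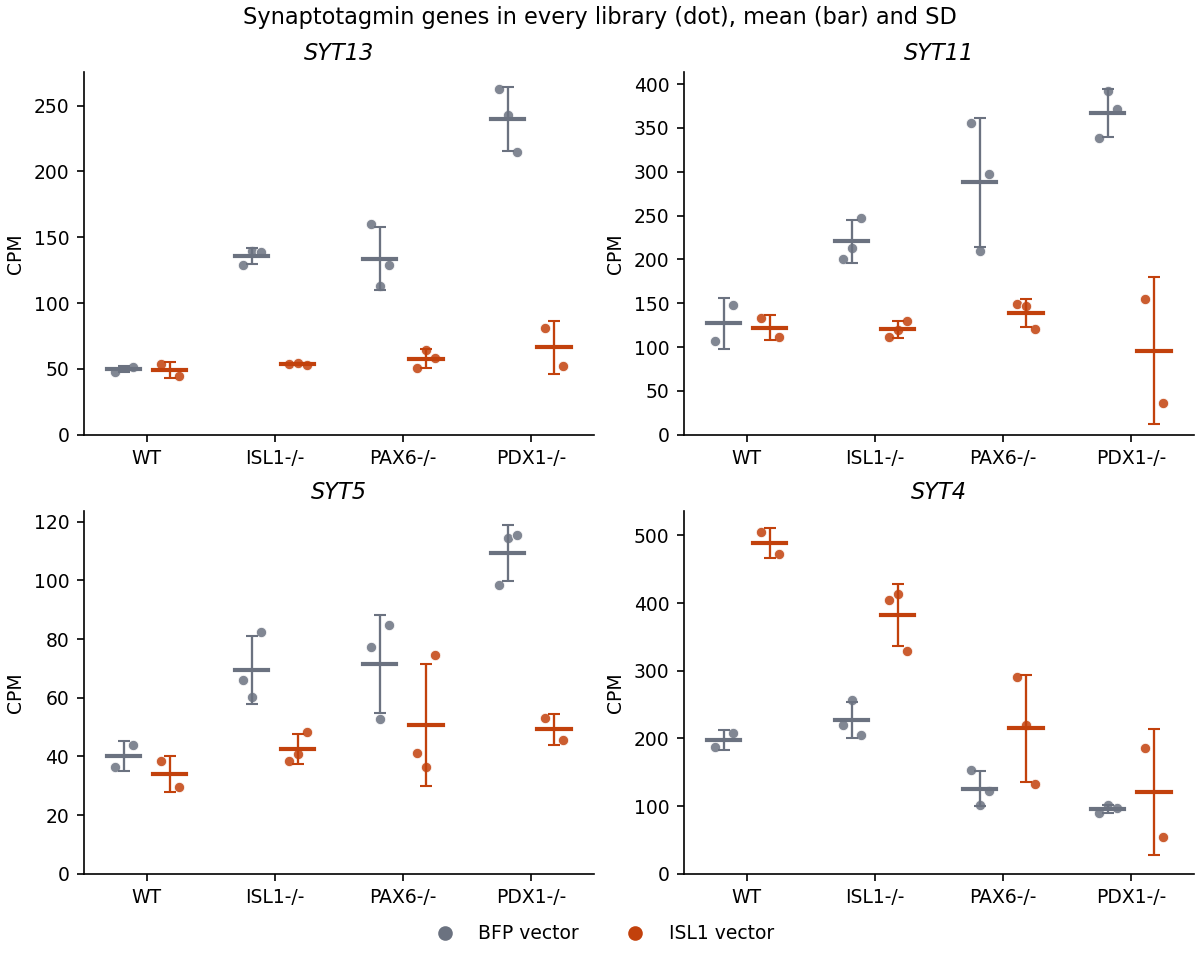
Levels of SYT13, SYT11, SYT5 and SYT4 (CPM) by genotype, with a dot for each library (grey BFP vector, orange ISL1 vector), a bar at the group mean and whiskers of 1 SD. SYT13 with BFP lies at 113 to 263 CPM in the knockouts and at 47.9 and 51.2 CPM in WT, and SYT4 is highest in WT with the ISL1 vector, at 505 and 473 CPM.

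SYT11 (ENSG00000132718.9, chromosome 1, bases 155859567 to 155885199, plus strand, GRCh38), an atypical synaptotagmin found on vesicles, was also higher in the knockout libraries with BFP. Its level was 107 and 147.5 CPM in WT, 201, 213 and 247.5 in ISL1-/-, 356, 209.6 and 298 in PAX6-/- and 338, 392 and 371 in PDX1-/-. All 9 knockout libraries were above both WT libraries. Only the PDX1-/- difference passed the test (1.53, SE 0.40, adjusted p = 0.022, edgeR). It was not called without WT BFP replicate 1 (1.31, adjusted p = 0.26) or 3 (1.78, adjusted p = 0.088), or without PDX1-/- BFP replicate 2 (1.48, adjusted p = 0.060) or 3 (1.52, adjusted p = 0.055). The differences in ISL1-/- (0.80, SE 0.39, adjusted p = 0.28) and PAX6-/- (1.18, SE 0.40, adjusted p = 0.096) did not pass in edgeR.

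Under the ISL1 vector SYT11 was 133 and 112 CPM in WT, 111, 119.9 and 129.5 in ISL1-/- and 149, 146.5 and 120.3 in PAX6-/-. The 2 PDX1-/- libraries were unlike each other, at 155 and 36.3 CPM, the second being the lowest of all 21. SYT11 was lower with ISL1 than with BFP in PDX1-/- (-1.94, SE 0.41, adjusted p = 0.0069, edgeR). The change was -1.24 without PDX1-/- ISL1 replicate 4, which leaves that group without a replicate. In the fit without this library, SYT11 was called higher with BFP in ISL1-/- (0.81, adjusted p = 0.022) and in PAX6-/- (1.18, adjusted p = 0.0019). It was called lower with the ISL1 vector in both (-0.90, adjusted p = 0.023, and -1.08, adjusted p = 0.0078, edgeR). With all libraries these vector changes were -0.88, SE 0.34 and -1.05, SE 0.34 and did not pass. With the replicate block SYT11 was called lower in PAX6-/- (-1.04, adjusted p = 0.013) and in ISL1-/- (-0.88, adjusted p = 0.029).

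SYT5 (ENSG00000129990.15, chromosome 19, bases 55171196 to 55180289, minus strand, GRCh38), a calcium-binding synaptotagmin of dense core vesicles, was highest in PDX1-/- with BFP. The level there was 98.4, 115 and 115 CPM, against 36.5 and 43.8 in WT, 65.9, 60.1 and 82.4 in ISL1-/- and 77.2, 52.7 and 84.7 in PAX6-/-. The PDX1-/- libraries lay above all other libraries of the series. The change against WT was 1.45, SE 0.30, adjusted p = 0.0049 (edgeR) in PDX1-/- and was not called without WT BFP replicate 1 (1.32, adjusted p = 0.093). SYT5 fell in PDX1-/- with the ISL1 vector to 53.05 and 45.6 CPM (-1.15, SE 0.29, adjusted p = 0.019, edgeR), which was not called without PDX1-/- ISL1 replicate 4 (-1.04, adjusted p = 0.17) or without PDX1-/- BFP replicate 2 (-1.11, adjusted p = 0.055) or 3 (-1.11, adjusted p = 0.059). In PAX6-/- with the ISL1 vector, replicate 3 stood apart, at 74.5 CPM against 41.0 and 36.4 in the others.

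SYT1 (ENSG00000067715.15, chromosome 12, bases 78863993 to 79452008, plus strand, GRCh38) was the scarcest of the set and was highest in the same group, with 14.6, 21.8 and 13.3 CPM in PDX1-/- with BFP. It lay between 3.67 and 9.53 CPM in the other 18 libraries. The difference from WT with BFP, at 8.31 and 8.92 CPM, was 0.94, SE 0.31 and did not pass with all libraries (adjusted p = 0.067, edgeR). It was called without PAX6-/- ISL1 replicate 3 (0.945, adjusted p = 0.022, edgeR), a library in neither group, and was 0.937 without PDX1-/- ISL1 replicate 4. SYT1 fell in PDX1-/- with the ISL1 vector to 5.93 and 8.54 CPM (-1.20, SE 0.32, adjusted p = 0.022, edgeR). This was not called without PDX1-/- ISL1 replicate 2 (-0.97, adjusted p = 0.054) or 4 (-1.48, adjusted p = 0.058) or without PDX1-/- BFP replicate 2 (-0.95, adjusted p = 0.089).

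SYT4 (ENSG00000132872.12, chromosome 18, bases 43267892 to 43277535, minus strand, GRCh38), a gene whose level rises as beta cells mature, had another order of groups. With BFP it was 187.5 and 208 CPM in WT, 220, 256 and 205 in ISL1-/-, 153, 101 and 122 in PAX6-/- and 89.5, 101 and 96.4 in PDX1-/-. Every PAX6-/- and PDX1-/- library was below both WT libraries, and ISL1-/- overlapped WT. The difference of PDX1-/- from WT, -1.05, SE 0.36, did not pass with all libraries (adjusted p = 0.082, edgeR), and was -1.05, adjusted p = 0.0079 without PDX1-/- ISL1 replicate 4. That library is in neither group of this comparison, and leaving it out changes the shared spread, the scaling and the genes tested.

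With the ISL1 vector SYT4 was 505 and 473 CPM in WT, the 2 highest values of the series, and 405, 413 and 329 CPM in ISL1-/-. It was 291, 220.2 and 133 CPM in PAX6-/- and 186.5 and 54.6 CPM in PDX1-/-. In WT and in ISL1-/- the ISL1 and BFP libraries did not overlap. The vector change was 1.31, SE 0.41, adjusted p = 0.77 in WT, 0.75, SE 0.33, adjusted p = 0.59 in ISL1-/- and 0.77, SE 0.33, adjusted p = 0.44 in PAX6-/- (edgeR). In PDX1-/-, where the libraries overlapped, it was 0.33, SE 0.37, adjusted p = 0.56 (edgeR), so none passed. Without both libraries with a high mitochondrial share it was called higher in WT (1.30, adjusted p = 0.0016), ISL1-/- (0.72, adjusted p = 0.0077), PAX6-/- (1.01, adjusted p = 0.0025) and PDX1-/- (0.99, adjusted p = 0.0040, from 1 ISL1 library that is assumed to vary like the other groups, edgeR).

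Under the ISL1 vector SYT4 was lower in PDX1-/- than in WT (-2.02, SE 0.42, adjusted p = 0.039, edgeR). The change was -1.39, adjusted p = 0.054 without PDX1-/- ISL1 replicate 4, which had the lowest SYT4 of all libraries, and the call held in 11 of 29 alternatives (-3.18 to -1.39 with 1 library left out). The matching difference was -1.19, SE 0.36, adjusted p = 0.086 in PAX6-/- and -0.35, SE 0.37 in ISL1-/- (edgeR).

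SYT7 (ENSG00000011347.10, chromosome 11, bases 61513714 to 61581148, minus strand, GRCh38), a calcium sensor of insulin granule release, had the smallest ratio of highest to lowest library of the 6 synaptotagmins (3.44, from 46.6 to 160.1 CPM). With BFP each knockout overlapped WT, with means of 116 ± 10.6 (SD, n = 2) CPM in WT, 142 ± 18.7 (SD, n = 3) in ISL1-/-, 104 ± 9.42 (SD, n = 3) in PAX6-/- and 117 ± 24.55 (SD, n = 3) in PDX1-/-. With the ISL1 vector it was 64.6, 67.0 and 46.6 CPM in PAX6-/- and 74.9 and 57.2 CPM in PDX1-/-, below all libraries of the same knockout with BFP. These vector changes did not pass with all libraries (-0.812, SE 0.245, adjusted p = 0.22 in PAX6-/- and -0.828, SE 0.279, adjusted p = 0.059 in PDX1-/-, edgeR). They were -0.664 without PAX6-/- ISL1 replicate 3 and -0.645 without PDX1-/- ISL1 replicate 4, respectively. In PAX6-/- SYT7 was below WT with the ISL1 vector (153 and 83.9 CPM in WT, -0.996, SE 0.27, adjusted p = 0.048, edgeR). This call held in 11 of 29 alternatives (-1.37 to -0.52 with 1 library left out) and was -0.85, adjusted p = 0.12 without PAX6-/- ISL1 replicate 3.

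Of the SNAREs, STX1A (ENSG00000106089.12, chromosome 7, bases 73699206 to 73719672, minus strand, GRCh38), the plasma membrane syntaxin of insulin release, was also highest in PDX1-/- with BFP. It was 304, 316 and 301 CPM there, the 3 highest values of the series, and 150.2 and 189.8 CPM in WT with BFP. The difference was 0.85, SE 0.27 and missed the threshold with all libraries (adjusted p = 0.055, edgeR). STX1A was called without PAX6-/- ISL1 replicate 3 (0.853, adjusted p = 0.0365, edgeR), a library in neither group, and its difference was 0.847 without PDX1-/- ISL1 replicate 4. In PDX1-/- it fell with the ISL1 vector to 167 and 96.6 CPM (-1.22, SE 0.28, adjusted p = 0.010, edgeR), which was -0.87, adjusted p = 0.16 without PDX1-/- ISL1 replicate 4. In PAX6-/- the libraries went from 223, 171 and 233 CPM with BFP to 109, 119 and 129 CPM with ISL1 without overlap (-0.81, SE 0.24, adjusted p = 0.20, edgeR), and the replicate block gave -0.81, adjusted p = 0.022.

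SNAP25 (ENSG00000132639.15, chromosome 20, bases 10172395 to 10308258, plus strand, GRCh38) and VAMP2 (ENSG00000220205.10, chromosome 17, bases 8159149 to 8163546, minus strand, GRCh38) complete the SNARE complex with STX1A. They were called in none of the 13 comparisons with all libraries. SNAP25 in PDX1-/- was 119, 163 and 134 CPM with BFP and 61.2 and 92.5 CPM with ISL1 (-0.85, SE 0.39, adjusted p = 0.15, edgeR). That change was -1.18 without PDX1-/- ISL1 replicate 4 and -1.15 without both libraries with a high mitochondrial share, fits that leave the group without a replicate. In ISL1-/- it was 108, 118 and 139 CPM with BFP and 60.9, 65.9 and 77.4 CPM with ISL1 (-0.84, SE 0.34, adjusted p = 0.50, edgeR), with no overlap. In PAX6-/- with ISL1 it was 66.6, 53.5 and 173 CPM, replicate 3 being the highest SNAP25 value of all libraries. The vector change there was -0.30, SE 0.34 with that library and -1.01, adjusted p = 0.12 without it.

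VAMP2 was between 31.5 and 60.2 CPM in 19 libraries and at 104.8 and 105.2 CPM in the other 2, PAX6-/- ISL1 replicate 3 and PDX1-/- ISL1 replicate 4. These are the 2 libraries with the high mitochondrial share, whose part in the VAMP2 level was not tested. With them the vector change in PDX1-/- was 0.42, SE 0.43, and without PDX1-/- ISL1 replicate 4 it was -0.53, neither called. In PAX6-/- it was 0.40, SE 0.39, and -0.34 without PAX6-/- ISL1 replicate 3.

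RIMS2 (ENSG00000176406.25, chromosome 8, bases 103500610 to 104254430, plus strand, GRCh38), a scaffold that binds Rab3 and prepares granules for fusion, had the smallest ratio of highest to lowest library (2.36, from 17.7 to 41.7 CPM). With BFP it was 40.0, 41.2 and 38.0 CPM in PDX1-/-, 40.9, 29.2 and 41.7 in PAX6-/-, 25.4, 24.1 and 33.5 in ISL1-/- and 24.2 and 27.2 in WT. PDX1-/- and PAX6-/- libraries were above WT without overlap, and the differences were 0.63, SE 0.23, adjusted p = 0.11 and 0.54, SE 0.23, adjusted p = 0.21 (edgeR). In PDX1-/- it fell with the ISL1 vector to 20.8 and 20.4 CPM (-0.95, SE 0.24, adjusted p = 0.017, edgeR). This was not called without PDX1-/- BFP replicate 2 (-0.92, adjusted p = 0.051) or PDX1-/- ISL1 replicate 4 (-0.93, adjusted p = 0.12). An antisense gene within RIMS2 had 65 to 230 counts, 9.17% of the RIMS2 counts, and SNAP25-AS1 had 2.21% of those of SNAP25. The strand setting of the counting is not given in the sources used here, so reads of these genes and their antisense partners cannot be told apart.

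**Figure D3:**
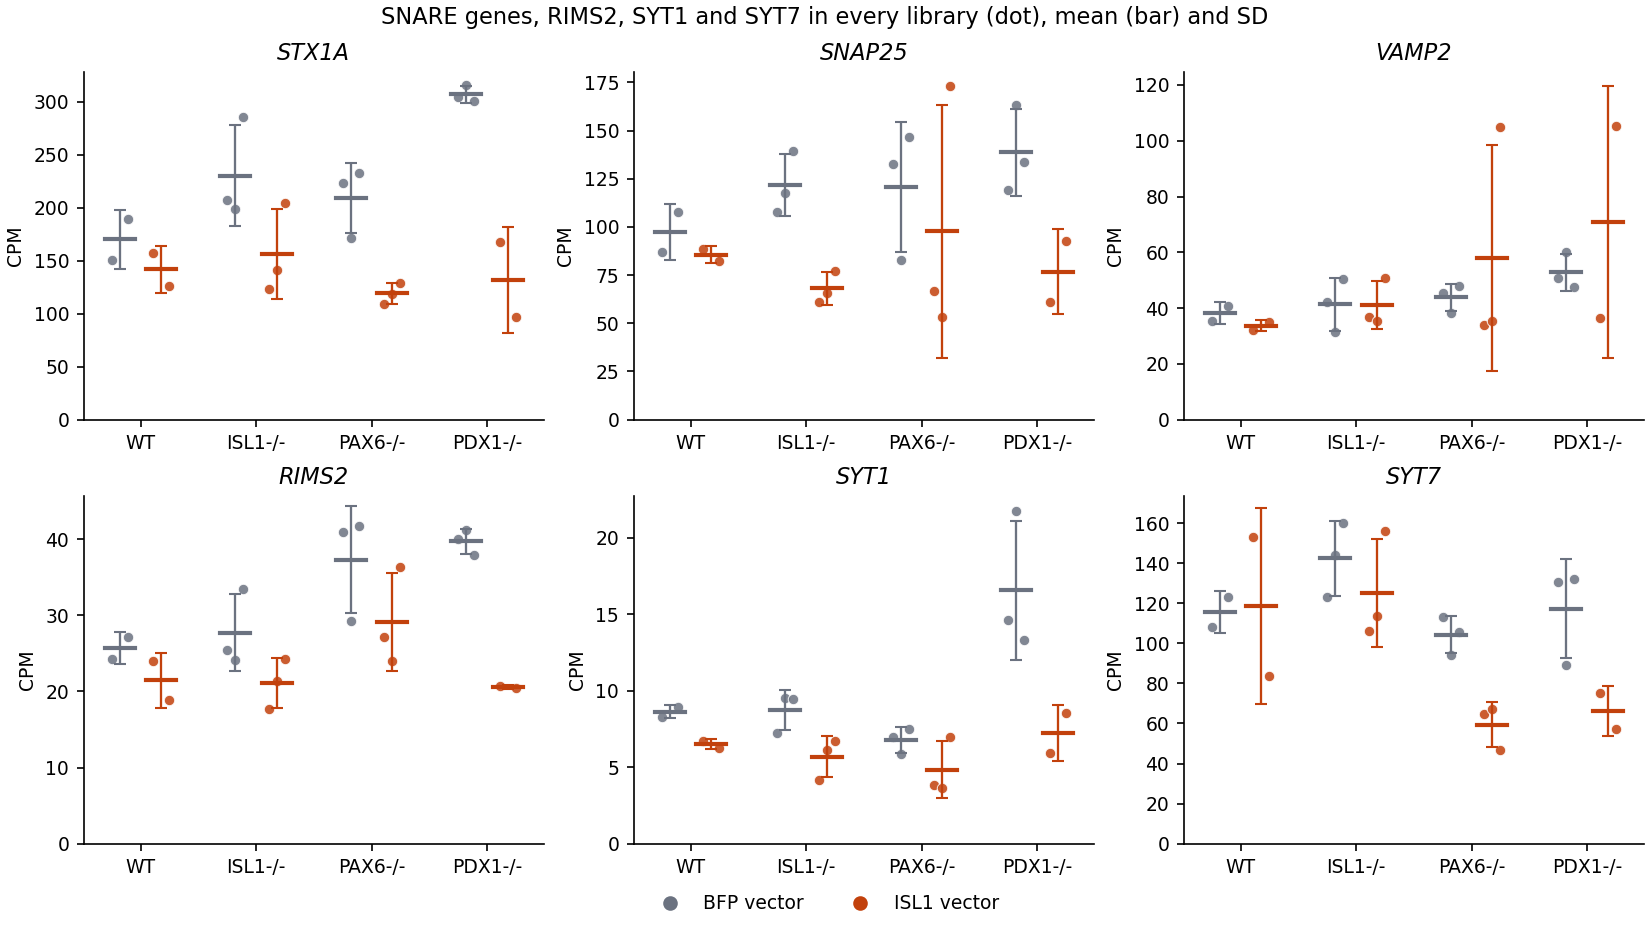
Levels of STX1A, SNAP25, VAMP2, RIMS2, SYT1 and SYT7 (CPM) by genotype, with a dot for each library (grey BFP vector, orange ISL1 vector), a bar at the group mean and whiskers of 1 SD. VAMP2 lies at 31.5 to 60.2 CPM except in 2 libraries at 104.8 and 105.2 CPM, and STX1A is highest in PDX1-/- with BFP, at 301 to 316 CPM.

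The calls over the 10 members are set against all 25884 genes as follows. With BFP, 1 of 10 members was called in ISL1-/- against WT (5.59% of all genes), 1 in PAX6-/- (5.51%) and 3 in PDX1-/- (9.68%), all higher. Without PAX6-/- ISL1 replicate 3 these counts were 2, 2 and 7 (9.24%, 9.08% and 14.1% of all genes), and without PDX1-/- ISL1 replicate 4 they were 2, 2 and 6 (9.96%, 10.5% and 14.5%). SYT4 was the 1 lower call among the 7 and among the 6. The median log2 fold change of the members was 0.31, 0.30 and 0.74, against 0.03, 0.03 and 0.03 over all genes.

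Between knockouts and WT with the ISL1 vector, 0 of 10 members were called in ISL1-/- (3.72% of all genes). There 0 were called by DESeq2 and 0 by limma voom, and 0 were at an unadjusted p under 0.05, against 4388 of 25884 genes. In PAX6-/- 1 was called (SYT7, 3.56%) and in PDX1-/- 1 (SYT4, 0.634%). The members' medians there were 0.03, 0.19 and -0.08, against 0.03, 0.13 and 0.10 over all genes. Without PAX6-/- ISL1 replicate 3 no member was called in PAX6-/-, and without PDX1-/- ISL1 replicate 4 none was called in PDX1-/-.

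Between the ISL1 and BFP vectors, 0 members were called in WT by edgeR (0.027% of all genes) and 1 by limma voom. At an unadjusted p under 0.05 there was 1 member in WT (SYT4), with 7 in ISL1-/-, 5 in PAX6-/- and 8 in PDX1-/-. Of 25884 genes, 988, 1971, 2658 and 7887 were under that p in the same order. In ISL1-/- 1 was called (0.382%; 2 with the replicate block), in PAX6-/- 1 (0.355%; 3 with the replicate block) and in PDX1-/- 6 (12.5%), all lower. Without PDX1-/- ISL1 replicate 4, which leaves that group without a replicate, most of the 6 were no longer called, and far fewer of all genes were called. Without PAX6-/- ISL1 replicate 3 the 6 became 8 (23.2% of all genes). None of the 6 was called with limma voom (0.085% of all genes called) or in a fit of only the groups compared (0% of all genes called). The members' medians were -0.18 in WT and -0.59, -0.49 and -1.05 in the knockouts in the same order, against 0.00, 0.03, 0.11 and 0.13 over all genes. For the difference of the vector effect from that in WT, 0 were called in ISL1-/- (0.00386%, with 1 by limma voom and 1 by DESeq2). In PAX6-/- 0 were called (0% of all genes, with 1 by limma voom) and in PDX1-/- 1 (1.19%). At an unadjusted p under 0.05 there were 1 in ISL1-/- and 2 in PAX6-/-, against 769 and 916 of 25884 genes.

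**Figure D4:**
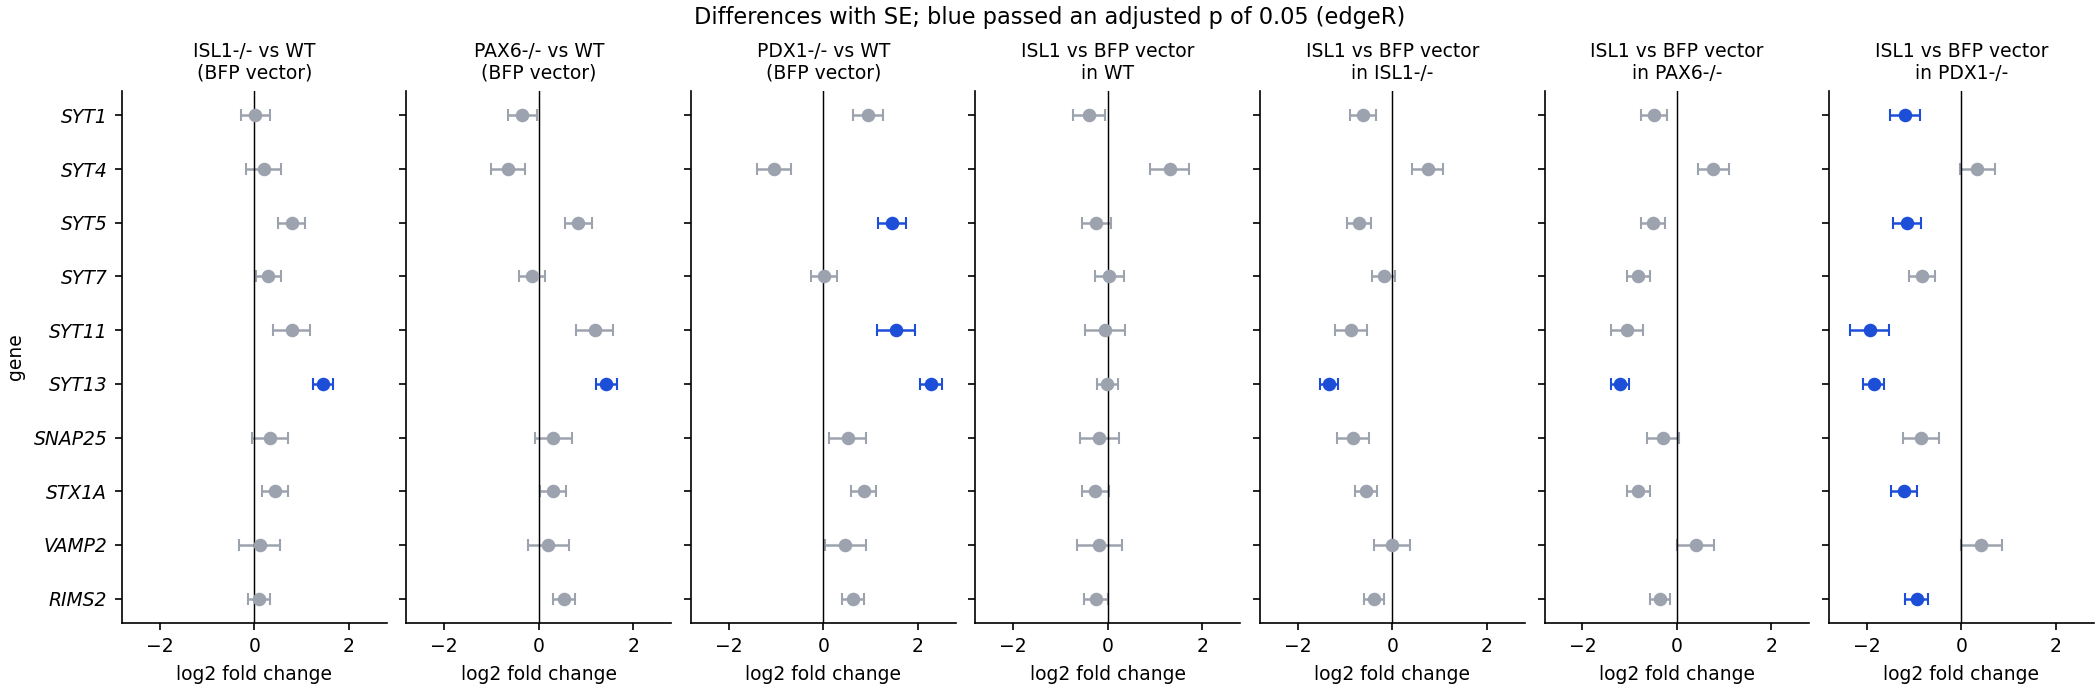
Log2 fold changes of the 10 genes with their standard errors, for the 3 knockouts against WT with the BFP vector and for the ISL1 against the BFP vector in each of the 4 genotypes. Blue points passed the test at an adjusted p under 0.05 (edgeR) and grey points did not, and SYT13 is blue in every panel except the comparison of vectors in WT.

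Markers of several cell types also differed between the groups, some higher and some lower where the members were higher. The 6 markers of enterochromaffin cells, the serotonin-producing cells that stem cell islet protocols also yield (TPH1, SLC18A1, LMX1A, FEV, DDC and ADRA2A), summed with BFP to 942 to 1094 CPM in WT, 2470 to 3297 in ISL1-/-, 1492 to 2357 in PAX6-/- and 3867 to 4476 in PDX1-/-. Under the ISL1 vector they summed to 636 to 692, 1111 to 1435, 669 to 1301 and 1379 to 1443 CPM. None was at 0 in any group, and the 2 PDX1-/- libraries with ISL1 were close to each other. With BFP, 4, 1 and 5 of the 6 were called higher in ISL1-/-, PAX6-/- and PDX1-/- (5.59%, 5.51% and 9.68% of all genes were called). With the ISL1 vector against BFP, 0, 1, 1 and 5 were called lower in WT and the same knockouts (0.027%, 0.382%, 0.355% and 12.5% of all genes). The 13 general endocrine markers summed to 52870 to 59070 CPM in PDX1-/- with BFP and to 28780 to 29860 with ISL1. With BFP they summed to 25310 to 30990 in WT, 28540 to 38880 in ISL1-/- and 19840 to 33650 in PAX6-/-, which overlap. The 8 neuron markers summed with BFP to 295 to 317 CPM in WT, 156.8 to 210 in ISL1-/-, 209 to 326.3 in PAX6-/- and 202 to 231 in PDX1-/-, with 2 under 1 CPM in each. Of the 7 tested, 2, 2 and 1 were called higher in ISL1-/-, PAX6-/- and PDX1-/- than in WT, and 0, 0 and 1 lower. The 5 endocrine progenitor markers summed with BFP to 522 to 609.5 CPM in WT, 846.5 to 1016 in ISL1-/-, 1500 to 2140 in PAX6-/- and 676.6 to 771.4 in PDX1-/-. In the knockouts 0, 3 and 1 of 5 were called higher in that order. With the ISL1 vector they summed to 548.8 to 554.9 in WT, 941.3 to 982 in ISL1-/-, 1341 to 2466 in PAX6-/- and 790.2 to 927.2 in PDX1-/-. The 10 alpha cell markers summed to 42480 to 57160 CPM in WT with BFP, 1226 to 1360 in ISL1-/-, 1810 to 2612 in PAX6-/- and 17330 to 22100 in PDX1-/- (5, 3 and 3 of 10 called lower, and 0, 1 and 1 higher). The 10 beta cell markers summed to 7203 to 8345 CPM in WT with BFP, 2954 to 3363 in ISL1-/-, 1527 to 2077 in PAX6-/- and 1993 to 2042 in PDX1-/- (3, 4 and 5 of 10 called lower, and 1, 0 and 2 higher). INS alone had a mean of 6418 CPM and GCG alone a mean of 43780 CPM in WT with BFP. The beta and alpha cell sums thus mostly follow INS and GCG there. Between vectors in PDX1-/-, 4 of 6 cell cycle, 4 of 7 delta cell and 3 of 6 exocrine and duct markers were called higher with ISL1. The 2 ISL1 libraries there were unlike, at sums of 254.6 and 1386 CPM for delta cell and 1317 and 3090 CPM for exocrine and duct markers. The marker calls were not repeated without PDX1-/- ISL1 replicate 4. The part of these lists in the results on the members was not tested. In these bulk samples more cells of a type and more RNA per cell cannot be told apart.

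Across the 21 libraries many of the members varied together. Over the 45 pairs, the Pearson correlation of log2 CPM had a median of 0.47 and ran from -0.66 to 0.90, and 35 pairs were positive. SYT13 went with SYT5 (r = 0.90), STX1A (0.86) and SYT11 (0.85), and SYT5 with RIMS2 (0.86). SYT4 was negatively correlated with 8 of the other 9, most with VAMP2 (-0.66), and positively only with SYT7 (0.29). The points share genotype, vector and the 2 libraries that stood apart, so these values describe the libraries and carry no test.

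**Figure D5:**
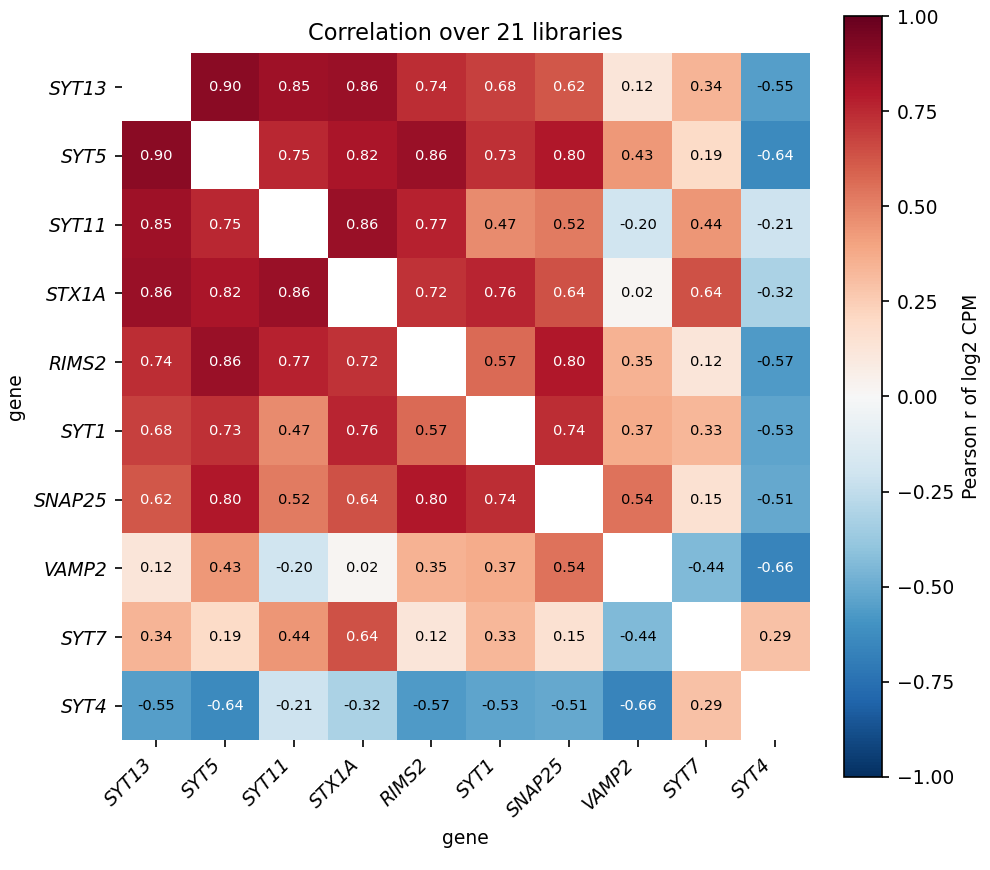
Pearson correlation of log2 CPM over the 21 libraries for the 45 pairs of the 10 genes, red where positive and blue where negative. The highest value is 0.90, for SYT5 with SYT13, and the lowest is -0.66, for SYT4 with VAMP2.

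By the same measure, over 10876 genes with a mean of at least 10 CPM, the genes most like each member were as follows. SYT13 was most like ACTR1B (r = 0.968) and NETO1 (r = 0.965), and SYT11 most like LRRN2 (r = 0.984) and SV2A (r = 0.983), the last a glycoprotein of secretory vesicles. SYT5 was most like MAPRE3 (r = 0.980) and PTHLH (r = 0.975), and SYT1 most like RABGGTA (r = 0.927) and CHGA (r = 0.924), the granule protein chromogranin A. SYT4 was most like PRPF3 (r = 0.871) and SLC19A2 (r = 0.866), and SYT7 most like AMIGO1 (r = 0.914) and LRFN2 (r = 0.901). STX1A was most like RTL5 (r = 0.967) and SPTBN4 (r = 0.964), and SNAP25 most like FHL1 (r = 0.937) and C19orf12 (r = 0.935). VAMP2 was most like OXLD1 (r = 0.967) and PQBP1 (r = 0.966), and RIMS2 most like MAP1B (r = 0.966) and CHST8 (r = 0.938). The share of the 10876 genes with r over 0.8 ran from 0.285% for SYT4 to 5.94% for SYT11 and 12.04% for VAMP2. By rank (Spearman), OXLD1 and PQBP1 correlated with VAMP2 at 0.868 and 0.870. VAMP2 was far higher in PAX6-/- ISL1 replicate 3 and PDX1-/- ISL1 replicate 4, whose part in its correlations was not tested.

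A list of 72 other exocytosis genes, of which 67 were tested, gives the surroundings of the members. With BFP, 11 were called in ISL1-/- against WT (5 higher, 6 lower), 8 in PAX6-/- (7 and 1) and 23 in PDX1-/- (17 and 6). Of all genes, 5.59%, 5.51% and 9.68% were called. Without PDX1-/- ISL1 replicate 4 the counts were 15, 21 and 37 (9.96%, 10.5% and 14.5% of all genes). Without PAX6-/- ISL1 replicate 3 they were 15, 16 and 33 (9.24%, 9.08% and 14.1%). RAB27B, a Rab GTPase that brings granules to the membrane, was lower in all 3 knockouts, from 26.5 to 27.6 CPM in WT to 2.55 to 3.58 in ISL1-/- (-3.19, SE 0.57, adjusted p = 0.0028), 4.86 to 6.23 in PAX6-/- (-2.33, SE 0.56, adjusted p = 0.021) and 1.36 to 3.67 in PDX1-/- (-3.33, SE 0.58, adjusted p = 0.0018, edgeR). DOC2B, a calcium-binding C2 protein of insulin release, was higher in all 3, by 2.64, SE 0.48, 1.64, SE 0.46 and 2.14, SE 0.47.

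The other synaptotagmins split in PDX1-/- with BFP, where 3 of the 9 tested were higher and 2 lower. SYT10, a calcium-binding synaptotagmin, fell there by 2.96 (log2, SE 0.61) and in ISL1-/- by 2.42 (SE 0.60). MYRIP, an effector of Rab27, fell in PDX1-/- (-2.55, SE 0.37, adjusted p = 0.00052, edgeR), and VAMP8, a SNARE of granules and endosomes, fell in ISL1-/- (-1.64, SE 0.43, adjusted p = 0.032, edgeR). In PAX6-/- the vesicle glycoproteins SV2C, from 0.110 to 0.272 CPM in WT to 8.09 to 12.7 CPM (5.84, SE 0.73, adjusted p = 0.00021), and SV2B (2.50, SE 0.53, adjusted p = 0.011) rose (edgeR).

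With the ISL1 vector in both arms, 8 of the 67 differed from WT in ISL1-/- (1 higher, 7 lower), 3 in PAX6-/- (1 and 2) and 1 in PDX1-/- (lower). Of all genes, 3.72%, 3.56% and 0.634% were called. Without PDX1-/- ISL1 replicate 4 the counts were 13 in ISL1-/- (7.51% of all genes) and 6 in PAX6-/- (6.73%), and PDX1-/- had no replicate. RAB27B was lower in each, with log2 changes of -4.14, SE 0.59, -3.19, SE 0.57 and -3.02, SE 0.66, adjusted p = 0.044 (edgeR). The last was -3.87 without PDX1-/- ISL1 replicate 4. SYTL5, a synaptotagmin-like effector of Rab27, was lower in ISL1-/- (-2.03, SE 0.46) and PAX6-/- (-2.09, SE 0.47), as were SYT10 (-3.18, SE 0.61) and VAMP8 (-1.77, SE 0.43) in ISL1-/-, and SV2C was higher in PAX6-/- (4.10, SE 0.64).

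Between vectors, none of the 67 was called in WT or in ISL1-/- by edgeR. At an unadjusted p under 0.05 there were 5 and 15, against 988 and 1971 of all 25884 genes. In PAX6-/- 1 was called (SYT6, -1.20, SE 0.24, adjusted p = 0.039, and -0.95, adjusted p = 0.076 without PAX6-/- ISL1 replicate 3, edgeR). In PDX1-/- 29 were called (5 higher, 24 lower). Of all genes, 0.027%, 0.382%, 0.355% and 12.5% were called in WT, ISL1-/-, PAX6-/- and PDX1-/-. Without PDX1-/- ISL1 replicate 4, which leaves that group without a replicate, most of the 29 were no longer called, and far fewer of all genes were called. The calls by role that follow were not counted without that library. By role in PDX1-/- with all libraries, 5 of 12 SNARE regulators, 4 of 13 docking and priming genes, 5 of 11 Rab and C2 effectors, 5 of 8 vesicle membrane genes and 5 of 9 other synaptotagmins were lower. Of the other 2 roles, none of 5 synaptotagmin-like genes was called and none of 9 other SNAREs was lower. The 5 higher calls were 2 synaptotagmins and 1 each of the SNARE regulators, Rab and C2 effectors and other SNAREs. SYT6, a synaptotagmin, fell from 37.1 to 46.2 CPM to 8.565 to 10.6 CPM (-2.17, SE 0.29, adjusted p = 0.00030, edgeR). The change of SYT6 was -2.02 without PDX1-/- ISL1 replicate 4. SV2B (-2.63, SE 0.54, adjusted p = 0.0057) and SV2A (-1.91, SE 0.48, adjusted p = 0.018) were lower (edgeR), and without the library they were -1.90, adjusted p = 0.058 and -1.15, adjusted p = 0.14. SYT10 was called higher (2.44, SE 0.60, adjusted p = 0.016, edgeR) although its libraries overlapped, and without PDX1-/- ISL1 replicate 4 it was 0.06, adjusted p = 0.98.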

How the data were processed

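RNA-seq read counts were analysed in 21 libraries of 8 groups, formed by genotype and vector from the sample titles. The authors deposited raw counts per gene, in the column layout of featureCounts per the file headers, with exon length. STAR 2.7.11b, featureCounts 2.1.1 and GRCh38 are named in the submitters' processing notes. The annotation release, the strand setting and how multimapping reads were handled are not given in the sources used here. Of 62700 entries, 62699 were used, and 1 entry (ANK2), broken over 3 lines, was left out. All these IDs could be paired with a symbol. Median depth was 50.4 M (1e6 counts), which fixes the counting error, and the spread between replicates was larger (common biological coefficient of variation 0.334).

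The test was edgeR's quasi-likelihood F test (edgeR 4.0.16, R 4.3.3), with TMM scaling, 1 coefficient per group and all 21 libraries in 1 fit without a block. Low counts were filtered with filterByExpr (minimum count 10, minimum total 15, by group). P-values were adjusted by Benjamini-Hochberg over 25884 genes, and an adjusted p under 0.05 was called. CPM are counts over the TMM-scaled library size, the log2 CPM used for correlations have a prior count of 2, and standard errors follow from the F statistic. Named genes were the 10 members, from the wider exocytosis list up to 4 called genes per comparison with the largest change and a mean of at least 5 CPM, and the 2 genes most correlated with each member. The members, the lists and the tests were chosen with earlier results of these data known. Scripts were tested on simulated data.

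Same-numbered libraries deviated together in PAX6-/- between vectors (correlations of 0.15 to 0.39 over 3 pairs, by the numbers in the labels), and in ISL1-/- at 0.10 to 0.29, so the blocked count stands beside those results. Alternatives were leaving out each library, or both with a high mitochondrial share, DESeq2 1.42.0 size factors and Wald test, limma 3.58.1 voom with quality weights, no filter, replicate blocks, and fits of only the groups compared. Counts of the wider list without the doubted libraries were added after seeing the data.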

Additional observations from a re-analysis of the deposited data

Results flagged for a closer look

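The ISL1 against BFP difference of SYT13 in PDX1-/- minus that in WT was -1.84 on the log2 scale (SE 0.32, adjusted p = 0.0089, edgeR's quasi-likelihood test), with all 3 PDX1-/- libraries with BFP above both PDX1-/- libraries with ISL1 and no such separation in WT. The value was -1.55 without PDX1-/- ISL1 replicate 4, which leaves that group without a replicate. The call was lost without WT BFP replicate 1 (-1.80, adjusted p = 0.066), WT BFP replicate 3 (-1.90, adjusted p = 0.057) or WT ISL1 replicate 1 (-1.73, adjusted p = 0.11). It was also lost with limma voom (-1.85, adjusted p = 0.19) and in a fit of only the groups compared (-1.82, adjusted p = 0.22). The 6 enterochromaffin markers summed to 3867 to 4476 CPM in PDX1-/- with BFP and to 1379 to 1443 CPM with ISL1, and their part in the difference was not tested. Groups of 2 or 3 libraries are too small for a formal test of an outlying library, and none was run.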

How the results depend on the processing

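No result changed direction while called, under any alternative run. The numbers of members called moved more, and are given in the order ISL1-/-, PAX6-/-, PDX1-/-. Each is followed in brackets by the share of all genes called in the same fit, except the ranges over fits with 1 library left out. The share moved as well, also in those fits. Between vectors in PDX1-/- it was 12.5% with all libraries and 23.2% without PAX6-/- ISL1 replicate 3, so the ranges are not results about the members alone. Leaving out 1 library at a time gave, for knockouts against WT with BFP, 1 to 2, 1 to 2 and 1 to 7, and with the ISL1 vector 0 in each fit for ISL1-/-, 0 to 2 and 0 to 4. Between vectors it gave 0 in each fit for WT, then 1 to 2, 0 to 3 and 2 to 8, and for the differences of the vector effect 0 in each fit, 0 in each fit and 0 to 4. Without both libraries with a high mitochondrial share, the counts were 3 [23.5%], 5 [23.5%] and 7 [27.6%] with BFP, and 3 [12.2%] in PAX6-/- and 2 [6.66%] in PDX1-/- with the ISL1 vector. Between vectors they were 1 [1.32%] in WT, 5 [4.93%], 7 [4.97%] and 8 [8.92%], and for the differences in ISL1-/- and PAX6-/- 1 [0.308%] and 1 [0.147%].

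With limma voom they were 3 [26.6%], 5 [25.9%] and 8 [32.2%] with BFP, and 3 [16.3%] in PAX6-/- and 0 [0%] in PDX1-/- with the ISL1 vector. Between vectors they were 1 [2.01%] in WT, then 7 [8.2%], 9 [9.96%] and 0 [0.085%], and for the differences 1 [0.58%], 1 [0.525%] and 0 [0.17%]. In fits of only the groups compared they were 3 [25.4%], 4 [21.8%] and 9 [30.6%] with BFP, and 1 [24.6%], 0 [0.185%] and 0 [0%] with the ISL1 vector. Between vectors these fits gave 1 [1.47%] in WT, then 5 [6.51%], 0 [0%] and 0 [0%], and for the differences 1 [0.443%] in ISL1-/- and 0 [0%] in PDX1-/-. With the DESeq2 Wald test they were 2 [9.48%] in PAX6-/- and 6 [13.6%] in PDX1-/- with BFP, 2 [6.98%] in PAX6-/- with the ISL1 vector, 2 [1.79%] in PAX6-/- between vectors, and 1 [0.1%] in ISL1-/- and 2 [4.37%] in PDX1-/- for the differences. Without a filter on low counts, 2 members [2.14%] were called in PAX6-/- with the ISL1 vector. The cause of these shifts was not tested.

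With the replicate number of the descriptions as a block, 3 [12.2%], 4 [13%] and 7 [17.7%] members were called with BFP, 2 [7.02%] in PAX6-/- with the ISL1 vector, and 2 [1.87%], 3 [2.23%] and 1 [2.09%] between vectors. With the number of the titles as a block, which differs for 3 libraries, 0 [2.98%] were called in PAX6-/- with the ISL1 vector. Between vectors in ISL1-/-, same-numbered libraries correlated at 0.10 to 0.29, at the limit of 0.1 set for pairing and just below it before rounding. The other comparisons, apart from PAX6-/- between vectors, did not meet that limit over 3 pairs, and the block was not read as a weaker or stronger effect there. For each member, the ratio of the highest to the lowest group mean moved by less than the replicate spread under DESeq2 size factors.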
